A study of Homo sapiens with 8 samples.

Results

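The 10 genes described here encode the AP-1 transcription factors JUN, JUNB, JUND, FOS, FOSB, FOSL1, FOSL2 and BATF and the small MAF proteins MAFF and MAFG. They were chosen by gene name, with earlier results of these data known, and all 10 were found among the 55765 gene names of each library. The libraries hold total RNA of NB4, a human acute promyelocytic leukaemia line with the PML-RARA fusion, and of Kasumi-1, a human acute myeloid leukaemia line with the RUNX1-RUNX1T1 fusion. Each line was sequenced untreated and after 6, 12 and 24 h with 40 uM chlorprothixene, an antipsychotic of the thioxanthene class. There was 1 library per condition, so no value below has a spread between cultures. The untreated cells were given no vehicle that the sources used here name and were not matched to the times, and 1 line stands for each kind of leukaemia.

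AP-1 is a dimer of basic leucine zipper proteins that binds the DNA letters TGANTCA. JUN proteins can pair with each other or with a FOS protein, whereas FOS proteins need a JUN partner; BATF also pairs with JUN proteins but has no transactivation domain of its own. Small MAF proteins likewise lack a transactivation domain and serve as partners of NRF2, NFE2 and the BACH repressors. Many of these genes are immediate early genes, switched on by mitogen-activated protein kinases within minutes of a signal, and in myeloid cells AP-1 works beside PU.1 at genes of monocytes and macrophages.

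Levels are TPM as deposited, an abundance per kb of transcript scaled to the same total in each library, so that levels of different genes can be set side by side. Between 13358 and 14582 genes reached 1 TPM in a library. Mitochondrially encoded genes took 5.04% to 6.71% of the TPM in the NB4 libraries, against 8.73% in untreated Kasumi-1 and 7.94%, 10.6% and 17.1% at its 3 treated times. The myeloid marker MPO stood between 1528 and 11406 TPM in all 8 libraries, while the stem and progenitor cell markers CD34 and KIT were at or below 0.0358 and 0.311 TPM in NB4. In Kasumi-1, untreated and at 6, 12 and 24 h, CD34 had 111.8, 18.3, 36.5 and 57.5 TPM and KIT 449.8, 72.5, 115 and 192 TPM. Both were thus lowest at 6 h, when most members that stood higher in Kasumi-1 were at their highest. Summed over the 10 myeloid markers, treated NB4 held 2315 to 4472 TPM, against 6609 TPM untreated. Treated Kasumi-1 held 14038 to 21277 TPM, against 18854 TPM untreated. The markers did not all move with their sum. In Kasumi-1, untreated and at 6 h, ELANE had 630 and 1495 TPM, AZU1 1460 and 2840 TPM and SPI1 132 and 263 TPM. By contrast CD33 had 48.5 and 18.3 TPM there, and PRTN3 5971 and 5050 TPM, with 1771 TPM at 24 h. In NB4, by time from untreated, MPO had 4889, 3140, 2104 and 1528 TPM, whereas SPI1 had 222, 247, 327 and 313 TPM. There CEBPA had 73.6, 92.8, 89.3 and 68.9 TPM, and ELANE was at or below 0.759 TPM. The part of CD34, KIT and these sums in the results was not tested. The erythroid genes HBB and HBA1 were listed at 0 throughout, and of the epithelial markers EPCAM was at 15.7 to 29.7 TPM with KRT19 at 0. In bulk RNA, a lower level in every cell and fewer cells with the transcript cannot be told apart. All 10 genes passed the filter on low values, a mean level of 1 TPM or more, and entered the tests. The mean read coverage of a member was lowest for FOSB in untreated NB4 (1.30 reads per base) and for MAFF in untreated Kasumi-1 (1.43), and MAFF had at most 8.66 in any library, so these values rest on few reads. The other 8 genes had a coverage of at least 11.8 in every library.

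**Figure D1:**
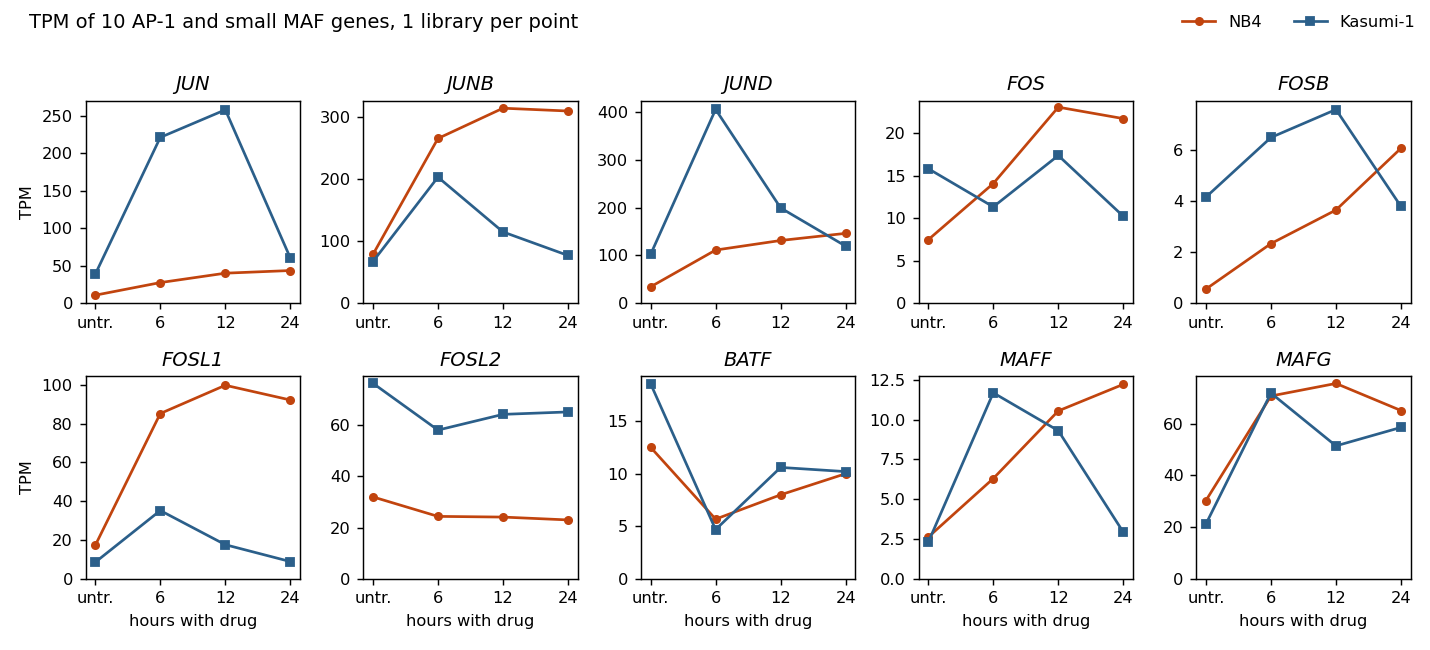
TPM (vertical axis, from 0, a scale for each panel) of the 10 genes in NB4 (circles) and Kasumi-1 (squares), untreated and at 6, 12 and 24 h (equally spaced); each point is 1 library. JUNB, JUND, FOSL1 and MAFF stay high in NB4 at 24 h (310.1, 146, 92.1 and 12.2 TPM) and are near their untreated level in Kasumi-1 (76.7, 119, 8.88 and 2.93 TPM).

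The JUN genes were higher in every treated library than in untreated cells of that line, but for different lengths of time. JUN (chromosome 1, 59246465 to 59249785, hg19, minus strand), the founding member and the strongest activator of its family, stood at 10.3 TPM in untreated NB4 and at 27.2, 39.8 and 43.3 TPM at 6, 12 and 24 h. Untreated Kasumi-1 cells had 38.4 TPM, and the treated ones 222, 258 and 60.2 TPM. NB4 was thus highest at 24 h, at 4.20 times its untreated level, and Kasumi-1 at 12 h, at 6.73 times; at 24 h Kasumi-1 was at 1.57 times. JUNB (chromosome 19, 12902310 to 12904124, plus strand), which can oppose JUN and in mice restrains the growth of myeloid cells, had 78.2, 266, 315 and 310.1 TPM in NB4, against 66.8, 203, 115 and 76.7 TPM in Kasumi-1, in order of time from untreated cells. JUND (chromosome 19, 18390563 to 18392432, minus strand), the family member that most resting cells already express, had 33.7, 111, 131 and 146 TPM in NB4, against 102, 406, 199 and 119 TPM in Kasumi-1. At 6 h JUNB was at 3.40 and 3.04 times and JUND at 3.29 and 3.99 times the untreated level in NB4 and Kasumi-1. At 24 h they were at 3.96 and 4.33 times in NB4, and at 1.15 and 1.17 times in Kasumi-1. JUNB lies within the interval of HOOK2 on the opposite strand, and strand-specific preparation is not given in the sources used here. Whole gene intervals were compared and not exons, so reads of this pair may not be told apart. HOOK2 had 9.44, 8.20, 11.9 and 11.4 TPM in NB4, against 28.9, 28.7, 22.8 and 36.7 TPM in Kasumi-1.

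Summed over JUN, JUNB and JUND, the level was 122, 404, 485 and 499 TPM in NB4, against 207, 831, 572 and 256 TPM in Kasumi-1, by time. The sum in NB4 kept nearly the same make-up: JUNB was 64.0%, 65.8%, 64.8% and 62.1% of it and JUN 8.44%, 6.73%, 8.20% and 8.68%. In Kasumi-1 the make-up moved. JUN was 18.6% of the sum untreated and 26.7%, 45.2% and 23.5% at 6, 12 and 24 h, while JUNB was 32.3%, 24.5%, 20.0% and 30.0%.

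**Figure D2:**
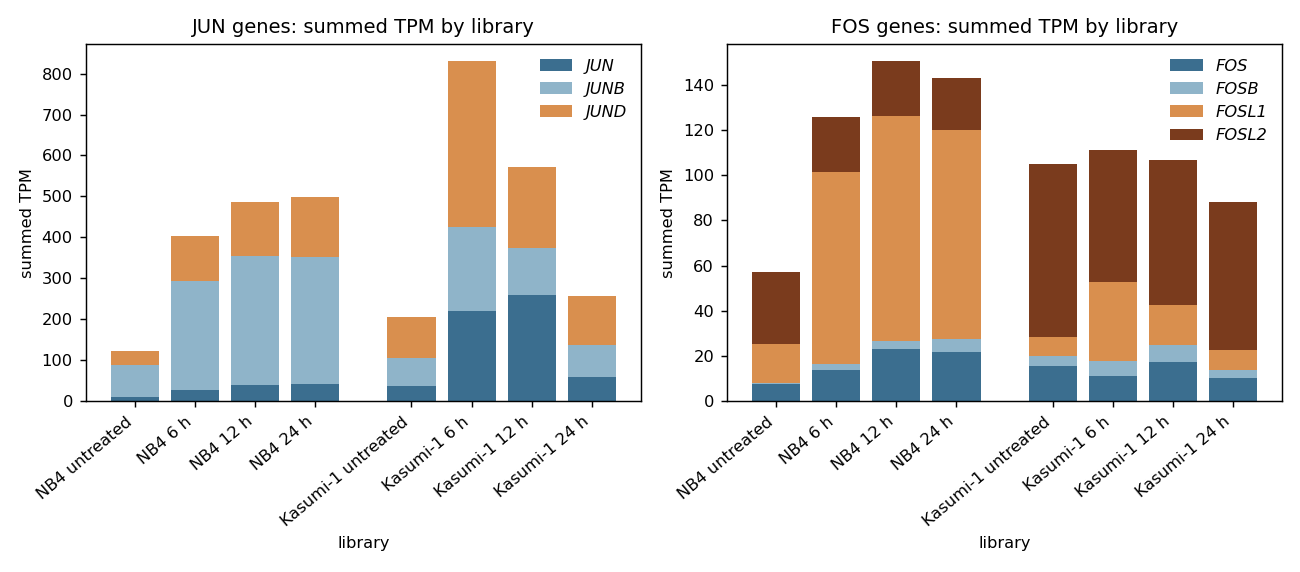
Summed TPM (vertical axis, from 0, a scale for each panel) of the JUN genes (left) and the FOS genes (right) in each of the 8 libraries, with each gene as a part of the bar; there are no replicates. The JUN sum in Kasumi-1 is 831 TPM at 6 h and 256 TPM at 24 h, and FOSL1 takes 64.5% to 67.6% of the FOS sum in treated NB4.

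The start regions of 4 of the genes that were at least 2-fold higher in both lines at 6 h are shown for the motifs they hold: 250 bases before and 50 after the start site, from RefSeq on GRCh38.p14, a later build than the hg19 of the deposited tables. The table matched 9 of the 10 genes, with 2 windows for MAFF, and no coordinate was carried between builds. Windows are JUN at chr1:58783998-58784297 on the minus strand, JUNB at chr19:12791236-12791535 on the plus strand, JUND at chr19:18281573-18281872 on the minus strand and MAFF at chr22:38201744-38202043 on the plus strand. They read 5′ to 3′ along the gene, with capitals for matches to TGACGTCA (the cyclic AMP response element, CRE), its part TGACG, TGACATCA (known from the JUN promoter as a site of JUN and ATF proteins) or TGANTCA:
JUN: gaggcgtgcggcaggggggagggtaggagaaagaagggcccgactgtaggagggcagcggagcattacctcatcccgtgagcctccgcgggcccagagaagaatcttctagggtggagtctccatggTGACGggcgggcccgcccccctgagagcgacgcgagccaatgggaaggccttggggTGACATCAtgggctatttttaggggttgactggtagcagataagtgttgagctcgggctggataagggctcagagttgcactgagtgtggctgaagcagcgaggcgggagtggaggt
JUNB: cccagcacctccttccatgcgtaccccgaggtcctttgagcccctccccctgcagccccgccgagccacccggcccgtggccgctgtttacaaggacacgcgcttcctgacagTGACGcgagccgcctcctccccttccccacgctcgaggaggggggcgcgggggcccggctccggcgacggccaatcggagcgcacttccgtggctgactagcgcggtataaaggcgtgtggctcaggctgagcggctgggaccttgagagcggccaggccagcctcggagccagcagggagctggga
JUND: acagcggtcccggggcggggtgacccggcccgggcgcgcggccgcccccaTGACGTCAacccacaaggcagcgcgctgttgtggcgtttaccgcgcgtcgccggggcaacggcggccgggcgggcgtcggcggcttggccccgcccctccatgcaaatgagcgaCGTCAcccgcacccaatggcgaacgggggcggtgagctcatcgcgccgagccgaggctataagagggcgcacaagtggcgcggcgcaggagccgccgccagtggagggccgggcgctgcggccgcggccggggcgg
MAFF: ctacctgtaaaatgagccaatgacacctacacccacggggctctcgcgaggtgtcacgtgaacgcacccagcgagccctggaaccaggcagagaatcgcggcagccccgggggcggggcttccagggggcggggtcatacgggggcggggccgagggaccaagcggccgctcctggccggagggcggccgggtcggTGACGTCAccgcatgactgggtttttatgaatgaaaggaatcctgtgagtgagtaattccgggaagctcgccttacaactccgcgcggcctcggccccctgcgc

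Both strands were searched, and the motifs were chosen after the sequences had been seen; TGACGTCA holds TGACG on both strands, so its matches are counted under both. TGACG was found in 8 of the 10 windows of the members and in 24.6% of all 35116 promoter windows of the same length. TGACGTCA was found in 2 of the 10, in JUND from base -200 and in MAFF from base -54 relative to the start, and in 1.85% of all windows. TGACATCA was found in JUN alone, from base -67, and in 2.61% of all windows. TGANTCA was found in 1 of the 10 windows, that of FOSL2, as TGACTCA from base 5 after the start, and in 7.71% of all windows. The GC content was 62.0%, 71.0%, 77.0% and 66.3% in the 4 windows shown, against a median of 58.7% over all windows and 46.0% for BATF. A match describes the letters of a window and is not evidence of binding.

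The FOS genes split, with FOSL1 high in both lines at 6 h, FOS and FOSB above untreated at every time in NB4 but not in Kasumi-1, and FOSL2 below untreated in both. FOS (chromosome 14, 75745477 to 75748933, plus strand), the partner of JUN in the classical AP-1 dimer, had 7.45, 14.1, 23.1 and 21.7 TPM in NB4 untreated and at 6, 12 and 24 h. In Kasumi-1 it had 15.8, 11.3, 17.4 and 10.2 TPM. Every treated NB4 library was thus above the untreated one, whereas those of Kasumi-1 lay on both sides. FOSB (chromosome 19, 45971253 to 45978437, plus strand), a close relative of FOS with short-lived induction, had 0.541, 2.32, 3.63 and 6.05 TPM in NB4, against 4.14, 6.47, 7.57 and 3.77 TPM in Kasumi-1. Its level in NB4 was highest at 24 h, and it was the least abundant member in every NB4 library. FOSB lies wholly within the interval of ERCC1 on the opposite strand (32.1, 32.5, 43.3 and 51.6 TPM in NB4, against 39.1, 44.9, 55.7 and 44.9 TPM in Kasumi-1). Reads of this pair may thus not be told apart either, and the part of ERCC1 in the FOSB values was not tested.

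FOSL1 (chromosome 11, 65659520 to 65668044, minus strand) encodes FRA-1, which lacks the strong transactivation domain of FOS and is itself a target of AP-1. It had 17.2, 85.2, 99.7 and 92.1 TPM in NB4, at 4.95, 5.79 and 5.35 times the untreated level at 6, 12 and 24 h. In Kasumi-1 it had 8.53, 35.2, 17.6 and 8.88 TPM, at 4.12, 2.06 and 1.04 times. FOSL1 was therefore still high at 24 h in NB4 and at its untreated level in Kasumi-1. FOSL2 (chromosome 2, 28615315 to 28640179, plus strand), which encodes the related FRA-2, was the most abundant FOS gene in both untreated lines. It had 32.0, 24.4, 24.1 and 23.0 TPM in NB4, against 76.4, 58.1, 64.3 and 65.2 TPM in Kasumi-1, below the untreated level in 6 of 6 treated libraries. As a share of the summed FOS genes, FOSL1 was 30.1% in untreated NB4 and 67.6%, 66.2% and 64.5% at 6, 12 and 24 h, and FOSL2 55.9%, 19.4%, 16.0% and 16.1%. In Kasumi-1, FOSL2 held 72.8%, 52.3%, 60.2% and 74.0%, and FOSL1 8.13%, 31.7%, 16.5% and 10.1%. The FOS genes summed to 57.2, 126, 151 and 143 TPM in NB4, against 105, 111, 107 and 88.1 TPM in Kasumi-1.

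FOS and FOSB, which were above untreated at every time in NB4 but not in Kasumi-1, both hold TGACG ahead of TATAAA, and are shown here with capitals for TGACG (FOS at chr14:75278578-75278877 on the plus strand and FOSB at chr19:45467746-45468045 on the plus strand, GRCh38.p14):
FOS: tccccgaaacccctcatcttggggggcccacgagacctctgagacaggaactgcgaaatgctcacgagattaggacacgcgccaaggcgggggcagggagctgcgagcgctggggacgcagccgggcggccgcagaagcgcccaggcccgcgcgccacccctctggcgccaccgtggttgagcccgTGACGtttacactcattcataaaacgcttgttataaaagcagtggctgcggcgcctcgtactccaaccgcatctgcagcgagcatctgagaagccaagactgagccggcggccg
FOSB: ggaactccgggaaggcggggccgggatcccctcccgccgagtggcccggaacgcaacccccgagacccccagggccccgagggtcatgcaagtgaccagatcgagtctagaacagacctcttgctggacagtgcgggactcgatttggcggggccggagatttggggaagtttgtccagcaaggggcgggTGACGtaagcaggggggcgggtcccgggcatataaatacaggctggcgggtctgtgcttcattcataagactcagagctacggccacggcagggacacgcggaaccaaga

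TGACG lies at base -64 in FOS and at base -60 in FOSB, on the strand of the gene. The letters TATAAA follow at base -33 in FOS and at base -30 in FOSB, and also stand at base -31 in JUNB. Of all windows 11.5% hold them, against 3 of the 10 windows of the members. JUNB too holds TGACG ahead of TATAAA, at base -137, and it was above untreated at every time in both lines. The order of these letters is thus not particular to FOS and FOSB, and its part in the responses was not tested.

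BATF was the gene that stood lowest relative to untreated cells at 6 h. BATF (chromosome 14, 75988768 to 76013358, plus strand), a partner of JUN proteins best known from T and B cells, had 12.5, 5.68, 7.99 and 10.0 TPM in NB4 untreated and at 6, 12 and 24 h. In Kasumi-1 it had 18.6, 4.68, 10.6 and 10.2 TPM. Its level was lowest at 6 h in both lines, at 0.454 times the untreated level in NB4 and 0.252 times in Kasumi-1, and below untreated in 6 of 6 treated libraries.

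The small MAF genes were higher in 6 of 6 treated libraries. MAFF (chromosome 22, 38597889 to 38612518, plus strand), the stress-induced small MAF, had 2.62, 6.30, 10.6 and 12.2 TPM in NB4, against 2.30, 11.7, 9.31 and 2.93 TPM in Kasumi-1. MAFG (chromosome 17, 79876146 to 79885590, minus strand), the usual partner of NRF2, had 30.3, 70.7, 75.6 and 65.1 TPM in NB4, against 21.2, 71.8, 51.4 and 58.5 TPM in Kasumi-1. MAFF in Kasumi-1 was near its untreated level at 24 h, whereas MAFG was at 2.76 times. MAFG made up 84.2% to 95.2% of the sum of both genes in every library. MAFG overlaps SIRT7 on the same strand over 3054 bases, so reads there may be counted for either gene. SIRT7 had 27.9, 34.0, 35.2 and 40.1 TPM in NB4, against 39.8, 57.4, 54.2 and 55.7 TPM in Kasumi-1. MAFF overlaps PLA2G6 on the opposite strand, at 4.80, 3.76, 3.36 and 2.96 TPM in NB4, against 16.6, 27.7, 20.0 and 41.3 TPM in Kasumi-1.

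A change here is log2(TPM + 1) in a treated library minus that in its line's untreated library, so the change of low genes such as FOSB and MAFF is understated. The 3 times of a line share that untreated library, and with 1 library per condition a gene is only counted as at least 2-fold changed, with no test. In NB4, 7 of the 10 members were at least 2-fold higher at 6 h, where 3.06% of all 14650 genes were. At 12 and 24 h 8 of the 10 were, FOS being the one added at both times (5.6% and 6.51% of all genes). In Kasumi-1, 6 of the 10 were at 6 h (6.44% of all genes), namely JUN, JUNB, JUND, FOSL1, MAFF and MAFG. At 12 h 3 of the 10 were (JUN, MAFF and MAFG, 4.85% of all genes), and at 24 h MAFG alone (5.11% of all genes). BATF was at least 2-fold lower at 6 h in NB4 (2.27% of all genes) and in Kasumi-1 (2.99%), and at 12 and 24 h 0 members were in either line (2.37% and 2.88% of all genes in NB4, 3.52% and 3.88% in Kasumi-1). The same 6 genes were at least 2-fold higher at 6 h in both lines, where 0.922% of all genes were. With log2(FPKM + 1) in its place, FOSB, MAFF and BATF were under 2-fold in NB4 at 6 h. FPKM values were lower than TPM, so the added 1 weighs more. In NB4, untreated and at 6 h, FPKM itself was 0.227 and 0.951 for FOSB and 1.10 and 2.58 for MAFF. For BATF it was 5.25 and 2.33. JUND and FOSL1 in Kasumi-1 at 12 h lay at the threshold, with log2 differences of 0.96 each.

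**Figure D3:**
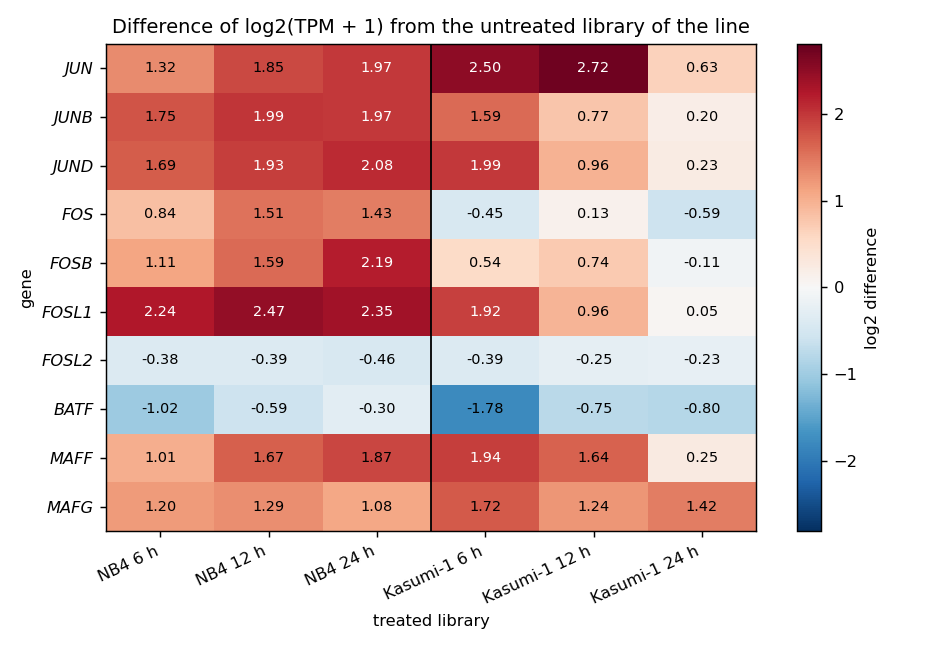
Change of log2(TPM + 1) relative to untreated cells of each line (colour and printed value) for the 10 genes (rows) in the 6 treated libraries (columns), with no replicates. In NB4 no gene is 2-fold lower at 24 h than at 6 h, while in Kasumi-1 the values of JUNB, JUND, FOSL1 and MAFF are 1.59, 1.99, 1.92 and 1.94 at 6 h and 0.20, 0.23, 0.05 and 0.25 at 24 h.

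The time courses ran differently in the lines. In NB4, 7 of the 10 were at least 2-fold higher at all 3 times (2.03% of all genes), against 1 of the 10 in Kasumi-1, MAFG (1.88%). In Kasumi-1, 5 of the 10 were at least 2-fold lower at 24 h than at 6 h, where 4.02% of all genes were: JUN, JUNB, JUND, FOSL1 and MAFF stood at 24 h at 0.272, 0.377, 0.293, 0.252 and 0.251 times their level at 6 h. In NB4, 0 of the 10 were (0.99% of all genes), and the same 5 genes stood at 1.59, 1.17, 1.32, 1.08 and 1.94 times their level at 6 h. In Kasumi-1, JUNB, JUND, FOSL1 and MAFF were at least 2-fold higher at 6 h and within 1.5-fold of untreated at 24 h (2.4% of all genes; the rule was chosen after the values were seen), and in NB4 0 members were (0.362%). Counting any size, 8 of the 10 were higher at 24 h than at 6 h in NB4 (48.3% of all genes) and 2, FOSL2 and BATF, in Kasumi-1 (43.7%). Over both lines, 6 of the 10 stood above untreated in 6 of 6 treated libraries (12.9% of all genes) and 2 below (16.9%). The difference between the time courses rests on 1 library per time and line and was not tested. The library of Kasumi-1 at 24 h also had the highest share of mitochondrial TPM, 17.1%. When mitochondrial transcripts and the 10 most abundant genes of each library were taken out of all libraries before rescaling TPM, the changes there were 0.78 for JUN, 0.34 for JUNB, 0.37 for JUND, 0.19 for FOSL1 and 0.38 for MAFF, against 0.63, 0.20, 0.23, 0.05 and 0.25 with TPM as deposited.

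A shared response (6, 12 and 24 h averaged, less the untreated level, in a model that also holds the line) was tested with limma across all genes. The p-values rest on the disagreement between lines, since cultures were not repeated. None of the 10 members passed a Benjamini-Hochberg adjusted p of 0.05, whereas 0.0273% of all genes did upward and 0% downward. At an unadjusted p under 0.05 limma had 7 members higher, where 9.3% of all genes were, and 2 lower, where 11.1% were. MAFG was nearest to the threshold, at 1.32 on the log2 scale (SE 0.16, limma adjusted p = 0.0607, higher in 6 of 6 treated libraries). JUN had 1.83 (SE 0.45, limma adjusted p = 0.116), FOSL1 1.67 (SE 0.43, adjusted p = 0.119), JUND 1.48 (SE 0.39, adjusted p = 0.124) and JUNB 1.38 (SE 0.34, adjusted p = 0.118). MAFF had 1.40 (SE 0.44) and FOSB 1.01 (SE 0.41), with limma adjusted p of 0.158 and 0.236. BATF was lower by limma's estimate, at -0.87 (SE 0.21, adjusted p = 0.11), as was FOSL2, at -0.35 (SE 0.13, adjusted p = 0.203). FOS had 0.48 (SE 0.35, limma adjusted p = 0.474), and its estimate was -0.30 without the untreated NB4 library. The median over the 10 members was 1.35, against -0.03 over all genes tested. MAFG passed with a mean of at least 5 TPM as the filter (limma adjusted p = 0.0472) and when times served as repeats (0.0164); over all alternatives its adjusted p ranged from 0.0164 to 1.

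**Figure D4:**
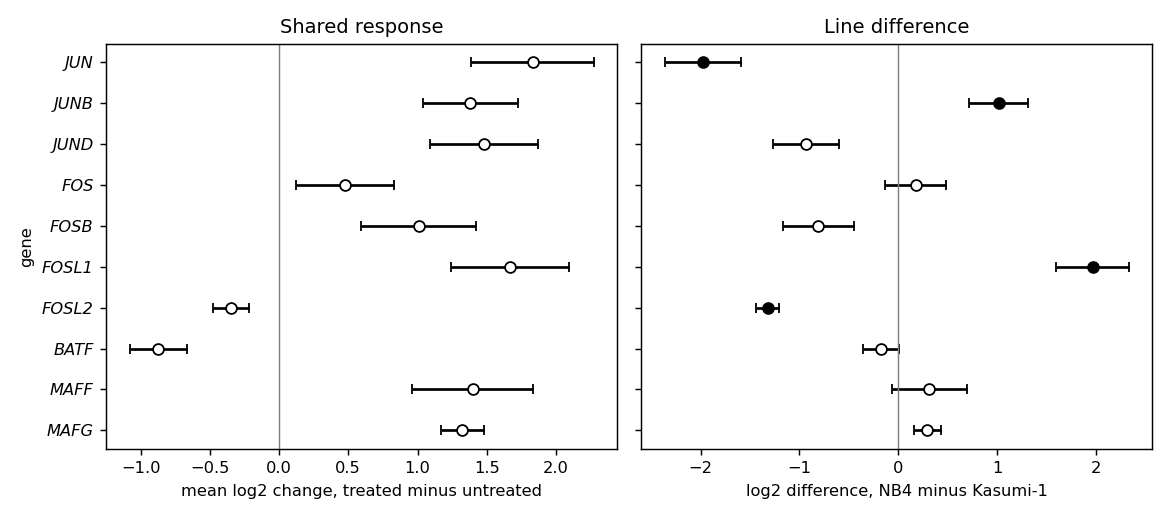
limma estimates (points) with their standard errors (bars) for the 10 genes: the mean change of treated minus untreated libraries over both lines (left) and NB4 minus Kasumi-1 over the 4 conditions (right), on the log2(TPM + 1) scale; filled points have an adjusted p under 0.05. On the left no point is filled; on the right FOSL1 (1.97) and JUNB (1.01) are filled above 0, and JUN (-1.98) and FOSL2 (-1.32) below.

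Between the lines, over the 4 conditions, 2 members passed as higher in NB4 and 2 as lower. Cultures were not repeated, so these p-values measure how the line difference varied over the conditions. FOSL1 was higher in NB4 than in Kasumi-1 (log2 difference 1.97, SE 0.37, limma adjusted p = 0.00385, higher in 4 of 4 conditions), and FOSL2 was lower (-1.32, SE 0.11, adjusted p = 0.000102, lower in 4 of 4). JUNB was higher in NB4 (1.01, SE 0.30, limma adjusted p = 0.0243, 4 of 4 conditions), and JUN was lower (-1.98, SE 0.39, adjusted p = 0.00453, lower in 4 of 4). These are 2 of 10 members in each direction, near the background of 27.5% of all genes higher in NB4 and 27.8% lower. The model holds 1 line difference for all conditions, but that of JUNB and FOSL1 was uneven. Untreated NB4 had 78.2 TPM of JUNB against 66.8 TPM in Kasumi-1, and at 24 h 310.1 against 76.7 TPM. For FOSL1 the values were 17.2 against 8.53 TPM untreated and 92.1 against 8.88 TPM at 24 h. JUNB did not pass without NB4 at 12 or 24 h (limma adjusted p = 0.0967 and 0.0687) or Kasumi-1 at 12 or 24 h (0.0968 and 0.0691), or with no filter on low values (0.0765), over a range of 0.0152 to 0.0968. JUND, at -0.93 (SE 0.34, limma adjusted p = 0.0505), and FOSB, at -0.81 (SE 0.36, adjusted p = 0.0956), did pass without NB4 or Kasumi-1 at 24 h. The limma adjusted p was then 0.00705 and 0.0072 for JUND, over a range of 0.00705 to 0.168 that also holds passes with FPKM (0.043) and rescaled TPM (0.0259), and 0.00806 and 0.00793 for FOSB, over a range of 0.00793 to 0.295. FOS, BATF, MAFF and MAFG had differences between -0.17 and 0.31.

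The response of NB4 minus that of Kasumi-1 was tested by taking 6, 12 and 24 h as repeats, so its p-values measure the spread over time. Of the 10 members 0 passed an adjusted p of 0.05 in limma (0.0887% of all genes were more upward in NB4 and 0.041% more downward). At an unadjusted p under 0.05, 1 member, FOS, was more upward in NB4 (6.37% of all genes) and 0 more downward (4.22%). FOS had a response of 1.56 more in NB4 on the log2 scale (SE 0.51, limma adjusted p = 0.368), higher than untreated in 3 of 3 times in NB4 and 1 of 3 in Kasumi-1. For JUN the estimate was -0.24 (SE 1.02), for JUNB 1.05 (SE 0.62) and for FOSL1 1.38 (SE 0.81), with limma adjusted p of 0.959, 0.597 and 0.597.

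Other genes of the pathway were described from lists by function, read against all genes tested, with a median shared change of -0.03. The lists were chosen with earlier results of these data known, so their counts and medians are not an independent test. An unadjusted p under 0.05 was reached by 9.3% of all genes upward and 11.1% downward. Of 16 bZIP partners 13 were tested; 0 passed the shared limma test in either direction, while unadjusted p-values under 0.05 covered 5 higher and 0 lower genes, and the list's median was 0.36. NFE2, a partner of small MAF proteins, had 27.2, 19.2, 20.1 and 15.0 TPM in NB4, against 1.73, 11.9, 12.5 and 7.35 TPM in Kasumi-1. ATF3, a stress-induced partner of JUN, was not among the genes that stood higher: it had 22.1, 20.0, 14.1 and 18.0 TPM in NB4, against 30.0, 22.3, 19.4 and 10.8 TPM in Kasumi-1. BATF3 had 13.1, 10.0, 14.0 and 14.6 TPM in NB4, against 12.9, 17.4, 6.36 and 3.33 TPM in Kasumi-1.

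The kinases and promoter factors upstream of AP-1, which are regulated largely on the protein, had a median near that of all genes. Of 23 genes 22 were tested, 0 passed the shared limma test (1 higher and 0 lower by unadjusted p), and the median was 0.05. MEF2D, a transcription factor that acts at the JUN promoter, had the largest positive shared response of the list on the log2 scale (0.54, SE 0.18, limma adjusted p = 0.181), at 29.7, 40.4, 47.9 and 55.3 TPM in NB4, against 18.5, 26.8, 27.4 and 21.1 TPM in Kasumi-1. ELK4, which acts with SRF at the FOS promoter, had 8.40, 11.8, 10.1 and 10.7 TPM in NB4, against 16.8, 18.8, 19.6 and 17.9 TPM in Kasumi-1. CREB1 had 15.8, 16.4, 15.0 and 11.7 TPM in NB4, against 22.2, 10.3, 11.1 and 12.0 TPM in Kasumi-1. ELK3 had 10.6, 13.0, 18.6 and 20.7 TPM in NB4, against 36.2, 15.4, 14.0 and 15.5 TPM in Kasumi-1.

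Of 21 genes known as AP-1 targets 17 were tested; 0 passed the shared limma test, while unadjusted p-values under 0.05 covered 14 higher and 0 lower genes, and the list's median was 1.62. In NB4 11, 12 and 13 of the 17 were at least 2-fold higher at 6, 12 and 24 h, beside 3.06%, 5.6% and 6.51% of all genes, and in Kasumi-1 7, 9 and 4 were, beside 6.44%, 4.85% and 5.11%. IL8, now named CXCL8, a neutrophil chemokine, had 4.24, 188, 277 and 134 TPM in NB4, against 319, 1208, 1477 and 266 TPM in Kasumi-1 (shared log2 response 3.24, SE 0.81, limma adjusted p = 0.118). In Kasumi-1 it was thus highest at 12 h and below untreated at 24 h. IL8 passed with times as repeats (limma adjusted p = 0.0429, in a range up to 1), and its estimate was 5.20 without the untreated Kasumi-1 library. ICAM1, an adhesion molecule, had 6.58, 339.8, 494 and 379 TPM in NB4, against 59.0, 71.8, 51.5 and 44.7 TPM in Kasumi-1. At the low end, GADD45B had 15.6, 26.3, 26.2 and 21.7 TPM in NB4, against 31.4, 24.5, 24.1 and 30.0 TPM in Kasumi-1, and VEGFA 79.5, 144, 101 and 99.3 TPM in NB4, against 128, 177, 129.8 and 210.4 TPM in Kasumi-1.

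Of 24 other immediate early genes 23 were tested; 0 passed the shared limma test, while unadjusted p-values under 0.05 covered 12 higher and 0 lower genes, and the list's median was 1.16. Their median change at 6, 12 and 24 h was 0.97, 1.57 and 1.45 for NB4, against 1.48, 1.35 and 0.29 for Kasumi-1, beside 1.15, 1.63 and 1.92 and 1.65, 0.87 and 0.12 for the 10 members. KLF2, a zinc finger factor, had 1.04, 7.74, 6.67 and 12.0 TPM in NB4, against 24.9, 573, 309 and 131 TPM in Kasumi-1 (shared log2 response 2.85, SE 0.51, limma adjusted p = 0.0815). IER5 had 26.8, 49.4, 47.4 and 40.0 TPM in NB4 and, listed at 0 in untreated Kasumi-1, 39.1, 40.3 and 31.7 TPM in the treated Kasumi-1 libraries. DUSP6, a phosphatase of ERK, had 63.0, 60.0, 114 and 143 TPM in NB4, against 51.6, 22.6, 14.3 and 20.8 TPM in Kasumi-1.

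Of 12 targets of NRF2 with small MAF partners, 0 passed the shared limma test, while unadjusted p-values under 0.05 covered 8 higher and 0 lower genes, and the list's median was 0.55. FTH1, the ferritin heavy chain, had 751, 2585, 3088 and 2751 TPM in NB4, against 218, 477, 567 and 556 TPM in Kasumi-1 (shared log2 response 1.59, SE 0.17, limma adjusted p = 0.0607), and passed without the untreated Kasumi-1 library (0.0293, in a range of 0.00575 to 1). HMOX1, haem oxygenase, which the list of AP-1 targets also holds, had 0.280, 2.52, 3.26 and 3.71 TPM in NB4, against 2.66, 15.2, 10.9 and 33.8 TPM in Kasumi-1 (2.03, SE 0.31, limma adjusted p = 0.0748). In Kasumi-1 the median of this list was 0.45, 0.53 and 0.62 at 6, 12 and 24 h, while that of the 10 members was 1.65, 0.87 and 0.12. SRXN1 had 41.2, 51.3, 51.3 and 48.1 TPM in NB4, against 35.7, 36.9, 24.9 and 23.9 TPM in Kasumi-1, and TXNRD1 199.6, 289, 276 and 232 TPM in NB4, against 159, 182, 219 and 148 TPM in Kasumi-1.

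**Figure D5:**
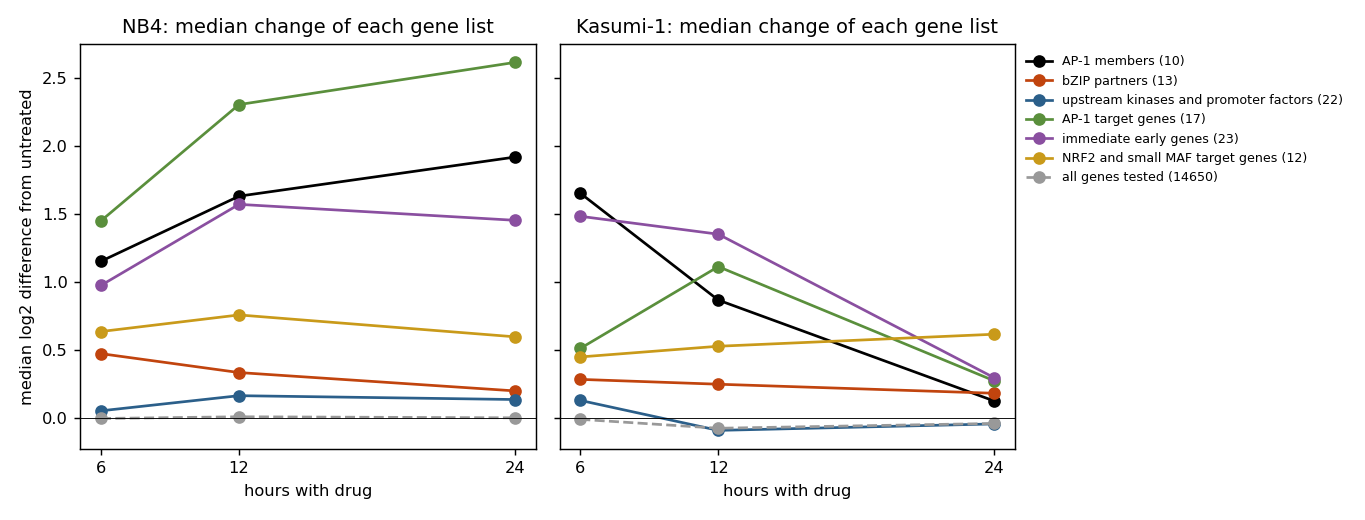
Median difference of log2(TPM + 1) from untreated (vertical axis) over the tested genes of each list (number in the legend) at 6, 12 and 24 h in NB4 (left) and Kasumi-1 (right); the dashed line is all genes tested. The median of the 10 members is 1.15 at 6 h and 1.92 at 24 h in NB4, and 1.65 and 0.12 in Kasumi-1.

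Likeness of pattern was measured as Pearson's r of log2(TPM + 1) over the 8 libraries after the mean of each line was taken off. This r is a description, since there was 1 library per condition. Genes named as most like a member were picked for the highest r among the 14650 genes, so a high r is no test. Among the members JUNB, FOSL1 and JUND were closest, with r of 0.997 for JUNB and FOSL1, 0.992 for JUNB and JUND and 0.989 for FOSL1 and JUND, and JUN and MAFF had 0.975. FOSL2 ran opposite to JUNB (r = -0.95), and BATF and FOS had an r of 0.03. Over all 14650 genes, FOSL1 was the gene most like JUNB, and JUNB the gene most like both FOSL1 and JUND. The next after these were TVP23B for FOSL1 (0.991), PLEKHO2 for JUNB (0.988) and AHDC1 for JUND (0.987). The 3 genes most like JUN were PPP1R15A (0.993), DAPK3 (0.984) and OSBP2 (0.978), and those most like MAFF were CSRNP1 (0.993), ZNF570 (0.991) and OSBP2 (0.989). RIOK3, SECISBP2L and CCDC51 were most like MAFG (0.993, 0.993 and 0.984), and HOXA5, TNFSF10 and KCNH2 most like BATF (0.985, 0.983 and 0.967). OAF, PFKFB3 and SLC35G2 were most like FOSB (0.981, 0.980 and 0.980), and INO80C, PTPRG and HTR7P1 most like FOS (0.975, 0.975 and 0.967). GLIS2 was the third most like FOSL1 (0.989).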

How the data were processed

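Total RNA of NB4 and Kasumi-1 cells was sequenced from 8 libraries made with an Illumina TruSeq kit, per the labels' protocols. Reads were processed with HISAT2 and StringTie on hg19, per the submitters' processing notes; their versions, settings and gene annotation: not given in the sources used here. TPM values are used as deposited, per the file headers. The deposited FPKM values, scaled by the authors to length and depth, served as an alternative. The deposited coverage, a signal of reads per base, was used only to judge depth; read counts are not held, so no count model was run.

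Rows were summed by gene name. The 14650 of 55765 genes whose mean reached 1 TPM were tested on log2(TPM + 1) with limma 3.58.1 under R 4.3.3 (eBayes with trend after lmFit and contrasts.fit, two-sided), Benjamini-Hochberg adjusted over all of them, threshold 0.05. The shared response and the line difference came from a model of line and time (3 residual degrees of freedom), the response difference from line, treatment and their product (4). The limma script was first tested on simulated data in which 200 genes were moved by a known amount. At a log2 change of 1 it recovered 0 of them in the shared response, 82 in the line difference and 0 in the response difference. At a change of 2 it recovered 166, 165 and 78. A member that did not pass is therefore not shown to be unchanged. Tables were joined in pandas 2.3.3 and numpy 2.4.6 on Python 3.11.15; matplotlib 3.10.9 drew the figures. The 10 members and the gene lists were chosen with earlier results of these data known. All members are named; of each list, the 2 tested genes at each end of the shared response with at least 5 TPM in a library; and the genes most like each member in pattern, clone names left out. CXCL8 was found under its older name IL8. A gene that the rule picks from the bZIP partners is not reported here.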

Additional observations from a re-analysis of the deposited data

Results flagged for a closer look

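In 2 of the list genes named above, ICAM1 and IER5, the difference between the responses of the lines passed the test. CCL2, an AP-1 target outside the naming rule, also passed (4.16, SE 0.38, limma adjusted p = 0.0187). It was at or below 0.287 TPM in every Kasumi-1 library, and was picked here after its values were seen. ICAM1 responded more upward in NB4 by 5.82 (SE 0.42, limma adjusted p = 0.00669), and did not pass without Kasumi-1 at 12 h (0.0597; range 0.00379 to 0.0597). IER5 had a response difference of -4.50 (SE 0.31, limma adjusted p = 0.00669; 0.0597 without Kasumi-1 at 12 h, range 0.000394 to 0.0597), and it was listed at 0 in untreated Kasumi-1, and the difference was -7.77 with a pseudocount of 0.1 TPM. Among the list genes that the naming rule picks, 3 more had all treated libraries of one line above untreated and all of the other below. List genes outside the naming rule, such as EGR1, IL1B and JDP2, did too, and were picked here after their values were seen. The share of all genes with this pattern was not counted, so the 3 are a description with no background beside them. For these 3 genes picked by the rule limma's response difference, NB4 minus Kasumi-1, did not pass: it was -2.63 for NFE2 (limma adjusted p = 0.119), 1.86 for ELK3 (0.19) and 0.89 for GADD45B (0.381).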

How the results depend on the processing

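No member passed the shared response with a pseudocount of 0.1 TPM, no filter, FPKM, TPM recomputed without mitochondrial and the most abundant genes, no cell line term, 1 time alone (chosen after seeing the data) or 1 library left out; 1 passed, MAFG, with a mean of at least 5 TPM or with times as repeats. Over all genes the shared calls were 4 higher and 0 lower, 15 and 2 with the recomputed TPM, 21 and 6 with a mean of at least 5 TPM, and 213 and 168 with times as repeats; with 1 library left out they ranged from 0 to 43 higher and from 0 to 7 lower. Among the list genes, KLF2, HMOX1 and IL8 passed only with times as repeats or, for IL8, also with 1 library left out. Members higher in NB4 than in Kasumi-1 numbered 1 with no filter on low values and 1 to 2 with 1 library left out, and members lower 2 to 4. With no filter, 4144 of all 30213 genes were higher in NB4 and 4568 lower. With 1 library left out, 3031 to 4054 of all 14650 genes were higher and 3335 to 3866 lower.

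The count at least 2-fold lower in NB4 at 6 h was 0 with log2(FPKM + 1), where the added 1 weighs more than with TPM. In Kasumi-1 at 12 h the count at least 2-fold higher was 5 with the recomputed TPM. A fold of 1.5 gave 7 higher and 1 lower there, 1 lower in NB4 at 12 h, and 2 higher and 2 lower in Kasumi-1 at 24 h. The shares of all genes under these alternatives were not counted, so the counts have no background beside them.

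Of 529 gene tests repeated under an alternative, 8 changed sign, all below the threshold and with 1 library left out. Over the fits with 1 library left out, FOS had a line difference of -0.10 to 0.57 and a shared response of -0.30 to 1.26, JUN a response difference of -0.90 to 0.15, and MAFF a response difference of -0.28 to 0.57 and a line difference of -0.17 to 0.68. The response difference could not be fitted without an untreated library. Depth limits FOSB and MAFF most. The line term compares treated with untreated libraries within each line; without it the limma adjusted p of MAFG was 1. The cause of these shifts was not tested.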
